A study of Mus musculus with 6 samples.

Results

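The genes described here are 64 members of the Kcn family of potassium channel genes, among 16454 genes measured in whole mouse ovaries. They were chosen by name, as every symbol that begins with Kcn and a lower-case letter, leaving out Kcnq1, its antisense RNA Kcnq1ot1 and opposite-strand transcripts. The family was taken up because one accessory subunit gene, Kcne4, stood out in the comparison of lineages, so the difference in Kcne4 is a description and not a test. RefSeq's annotation of GRCm38.p6 has 93 protein-coding genes under this rule. The other genes were not analysed here.

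The ovaries came from mice of the outbred CD1 stock at postnatal day 21. The DEHP lineage was generation F3 of dams dosed with DEHP, the phthalate plasticizer di(2-ethylhexyl) phthalate, at 20 µg/kg/day, and the control lineage was generation F3 of dams given the vehicle, tocopherol-stripped corn oil, with 3 ovaries each. The comparison asks whether ovarian expression differs in descendants that were not themselves dosed. Whether separate litters or founding dams gave the ovaries is not in the labels, so p-values measure only the spread between these ovaries.

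Levels are CPM, read counts scaled to a common library total, deposited on a log2 scale after the authors had removed a surrogate variable, an estimated nuisance direction. The summed CPM was 979868 to 1026735 per library, and sequencing depth is unknown. DEHP-lineage replicates 1 and 3 carried most of that direction, with weights of -0.6 and 0.75, and then had a correlation of 0.998 across genes, against at most 0.989 for other pairs. Spreads in the DEHP lineage are therefore too small: the median SD over all genes was 0.096 there and 0.149 in the control lineage, on the log2 scale. Markers of the tissue were present, with summed levels of 856.2 to 943.4 CPM for 9 oocyte markers in the DEHP lineage and 930.7 to 1197 CPM in the control lineage, and of 6594 to 7591 and 5813 to 6581 CPM for 8 granulosa cell markers.

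Potassium channels let potassium cross the cell membrane, and so set the resting membrane potential and end electrical responses. Voltage-gated, calcium-activated, inward-rectifier and two-pore-domain channels are built from different pore-forming subunits, and accessory subunits such as the KCNE proteins, which span the membrane once, alter their gating and trafficking. In the wall of blood vessels they oppose calcium entry and contraction. In the ovary, potassium currents have been recorded in granulosa cells, luteal cells and oocytes. Human KCNE4 inhibits KCNQ1 and some Kv1 channels in expression systems.

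Upstream sequences are shown for 4 members on which the results below turn. Kcne4 had the lowest fold change, Kcnk18 the highest, and the neighbours Kcnj2 and Kcnj16 varied widely within each lineage. Each is the 250 bases before the start site, from RefSeq's table for GRCm38.p6, plus strand, 5′ to 3′, with capitals for CACGTG and GGGCGG. The regions are chr1:78816661-78816910 for Kcne4, chr19:59219398-59219647 for Kcnk18, chr11:111065914-111066163 for Kcnj2 and chr11:110967783-110968032 for Kcnj16.
Kcne4: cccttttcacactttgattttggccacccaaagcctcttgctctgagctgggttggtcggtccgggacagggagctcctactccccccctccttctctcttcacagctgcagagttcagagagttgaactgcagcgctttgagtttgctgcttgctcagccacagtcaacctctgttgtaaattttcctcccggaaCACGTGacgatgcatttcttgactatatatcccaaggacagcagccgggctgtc
Kcnk18: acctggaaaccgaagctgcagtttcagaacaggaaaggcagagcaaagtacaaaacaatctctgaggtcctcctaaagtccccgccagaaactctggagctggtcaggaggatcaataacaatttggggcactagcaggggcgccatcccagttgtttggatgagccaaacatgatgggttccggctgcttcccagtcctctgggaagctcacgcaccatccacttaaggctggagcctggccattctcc
Kcnj2: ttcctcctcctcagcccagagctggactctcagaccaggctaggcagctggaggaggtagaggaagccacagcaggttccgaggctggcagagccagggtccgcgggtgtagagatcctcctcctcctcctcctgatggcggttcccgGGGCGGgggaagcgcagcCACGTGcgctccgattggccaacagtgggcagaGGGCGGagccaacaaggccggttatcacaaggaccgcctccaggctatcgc
Kcnj16: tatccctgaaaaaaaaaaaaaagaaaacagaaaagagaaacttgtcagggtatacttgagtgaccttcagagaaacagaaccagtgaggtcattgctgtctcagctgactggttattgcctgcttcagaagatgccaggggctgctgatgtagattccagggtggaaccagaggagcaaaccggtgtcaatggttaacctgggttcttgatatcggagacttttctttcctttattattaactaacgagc

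The motifs searched, on both strands, were the E-box CACGTG, the TATA box as TATAAA, the GC box as GGGCGG, and the CArG box. CACGTG begins 54 bases before the start of Kcne4 and 84 bases before that of Kcnj2, and GGGCGG begins 102 and 51 bases before that of Kcnj2. No match to any of the 4 was found in the windows of Kcnk18 and Kcnj16. Among all 32851 windows of the table, 6.02% held CACGTG, 12.37% TATAAA, 32.74% GGGCGG and 1.47% a CArG box. The table matched 46 of the 64 members with 69 windows, of which 5 held CACGTG, 1 TATAAA, 27 GGGCGG and 0 a CArG box. GC content was 65.6% in the Kcnj2 window and 42.8% in that of its neighbour Kcnj16.

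Levels per length, in CPM per kb of exon, spanned 0.076 for Kcnq3 to 17 for Kcnj3, averaged over the 6 ovaries. Kcnj3, which encodes a G protein-gated inward rectifier, was at 16.5 ± 2.26 CPM per kb in the DEHP lineage and 17.5 ± 1.56 in the control lineage (mean ± SD, n = 3 each, here and below). Kcnip3, a calcium-binding partner of Kv4 channels that also represses transcription, was next at 16.7 ± 0.915 and 17.1 ± 0.382 CPM per kb. These 2 did not differ beyond their spread. Kcnh2, of the erg channels that repolarise heart muscle, was at 13.6 ± 0.275 and 10.9 ± 3.1. Kcnt2, a sodium-activated channel, was at 12.6 ± 0.203 and 11.5 ± 1.96. Kcnq5, of the M-current family, was at 12.5 ± 1.49 and 10.6 ± 1.82. The stretch-sensitive channel gene Kcnk2 was at 12.5 ± 0.467 and 10.2 ± 1.48 CPM per kb, and the acid-sensitive channel gene Kcnk5 at 9.95 ± 0.115 and 10.7 ± 0.499. The ranges over all 6 ovaries of neighbours in this order overlapped from Kcnh2 to Kcnk5. As plain log2 CPM, 10 members averaged 5 or more, 20 lay between 2 and 5, 21 between 0 and 2, and 13 under 0, which is under 1 CPM. Genes on the opposite strand lie over 31.1% of the exon bases of Kcnj3 and 12.2% of those of Kcnk2, and without the strand setting of the counting their reads cannot be told apart.

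**Figure D1:**
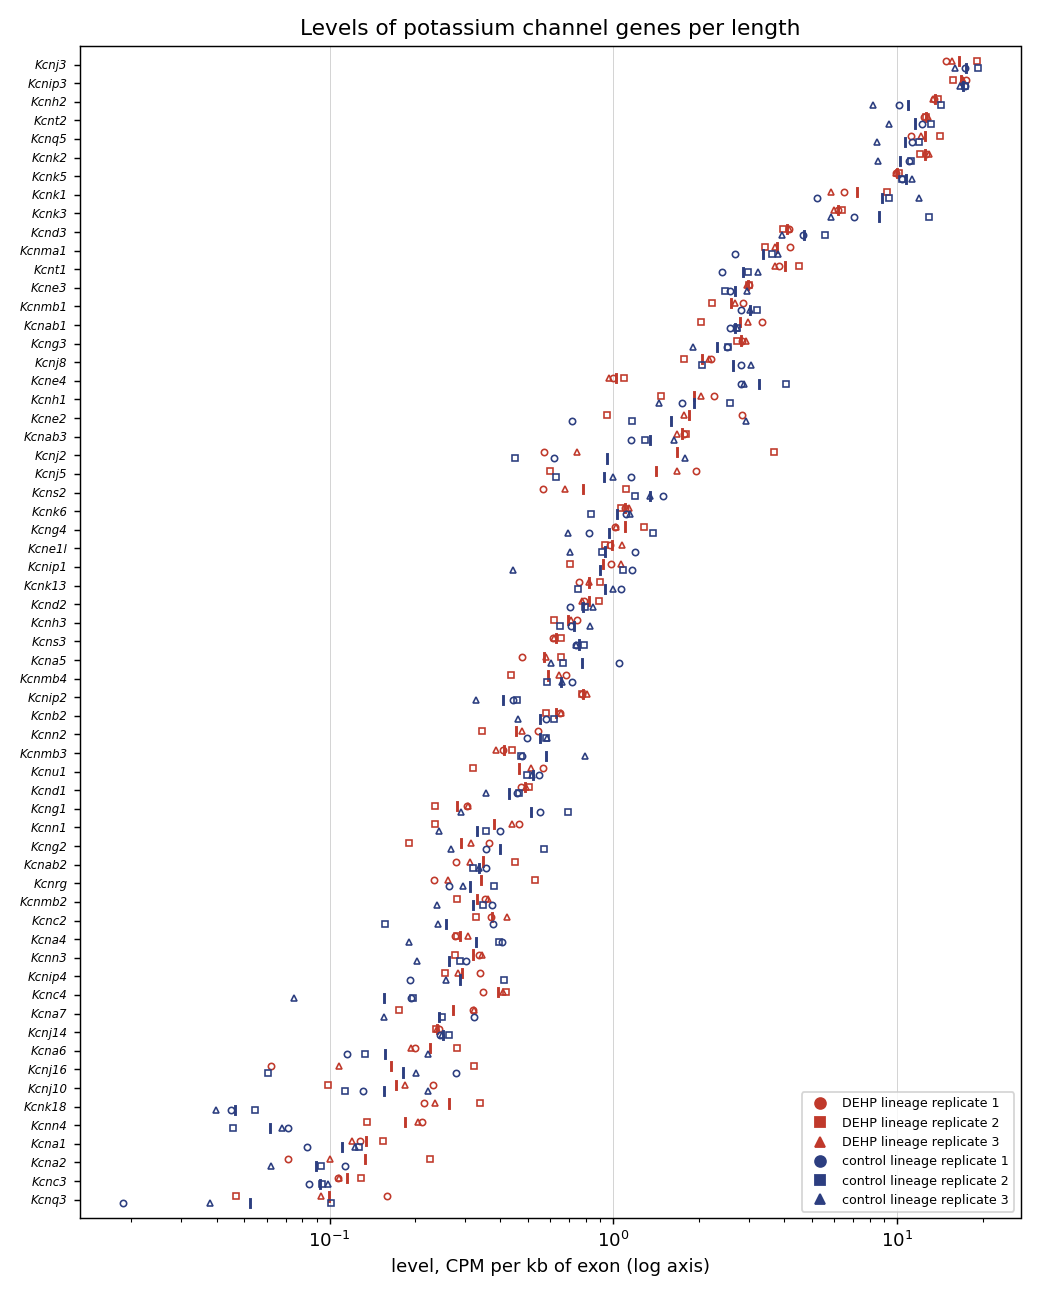
Levels per length of 62 members: the x axis is CPM per kb of exon (log axis), each point is 1 ovary, and vertical ticks are means of 3 ovaries. Kcnj3 and Kcnip3 lead near 17 CPM per kb, and Kcne4 is at 1.02 in the DEHP lineage against 3.25 in the control lineage.

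Kcne4 (chromosome 1, 78816911 to 78820032, plus strand) had the lowest fold change of the family. It was at 2.64, 2.89 and 2.57 CPM in DEHP-lineage replicates 1, 2 and 3, against 7.47, 10.8 and 7.66 CPM in control-lineage replicates 1, 2 and 3. All DEHP-lineage ovaries lay below all control ovaries, and the closest values of the groups were 2.89 and 7.47 CPM. The means were 2.7 ± 0.172 and 8.65 ± 1.88 CPM, a log2 fold change of -1.66 (SE 0.22, 95% interval -2.17 to -1.15), or 3.16-fold lower in the DEHP lineage. Per length, Kcne4 ranked 26 among the 64 members in the DEHP lineage and 12 in the control lineage. Its exons share 0% of their 31-base words with any other annotated gene and overlap no other gene's exons. Its adjusted p by limma was 0.141 with the 3 residual degrees of freedom left after the surrogate variable, and 0.0427 with 4, the value for which the family was taken up. Leaving out 1 ovary gave values from 0.049, without DEHP-lineage replicate 2, to 0.268, without DEHP-lineage replicate 3. With no mean-variance trend it was 0.307. In the authors' deposited table its log2 fold change was -1.68 and its adjusted p 0.217.

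The other Kcne subunit genes overlapped between the lineages. Kcne3, whose product holds KCNQ1 channels open in epithelia, was at 5.33, 5.36 and 5.26 CPM in the DEHP lineage, against 4.6, 4.39 and 5.27 CPM in the control lineage, and the groups overlapped at one ovary. Kcne2, a partner of KCNQ1 in the acid-secreting cells of the stomach, was at 5, 1.68 and 3.14 CPM against 1.27, 2.04 and 5.17 CPM. Its ovaries spread over the same range in both lineages, and its log2 fold change of 0.32 (SE 0.59) became -0.05 without DEHP-lineage replicate 1 and -0.13 without control replicate 1. Kcne1l, an X-linked member also called Kcne5, was at 1.5, 1.45 and 1.65 CPM against 1.84, 1.41 and 1.08 CPM, with overlapping groups. Its log2 fold change of 0.12 (SE 0.30) was -0.08 without control replicate 3. The differences between the fold change of Kcne4 and those of the other Kcne genes were not tested.

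**Figure D2:**
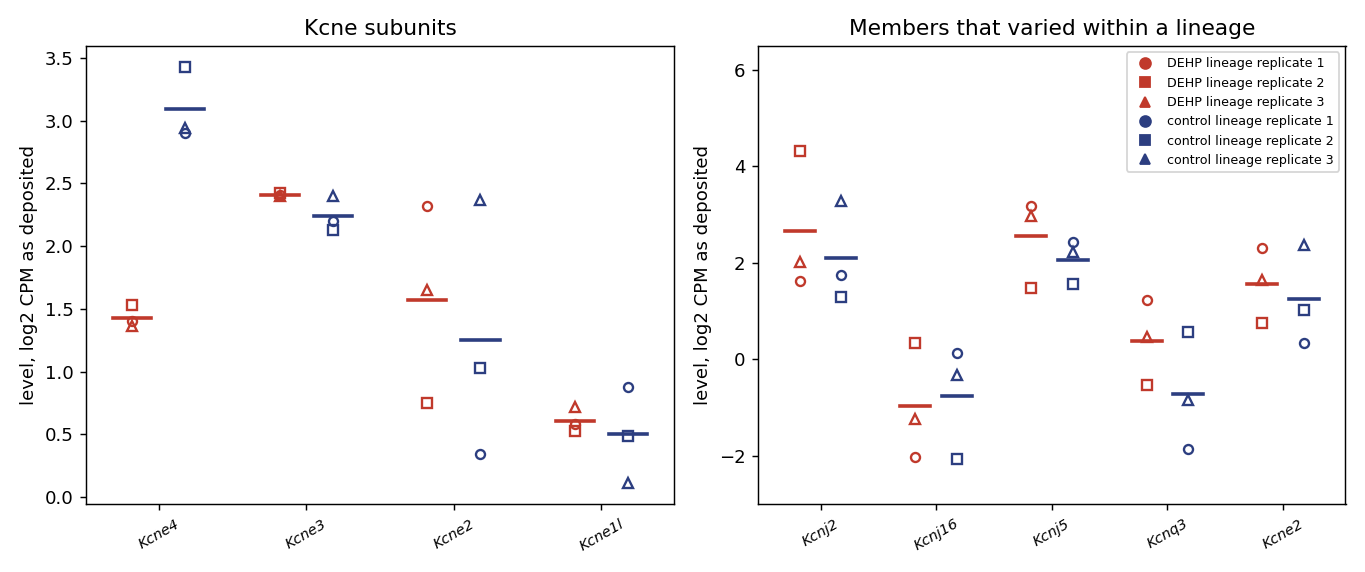
Level in log2 CPM (y axis) of the Kcne subunit genes (left) and of 5 members that varied within a lineage (right), with a point for each ovary and a bar at the mean of 3. Kcne4 separates the lineages, while Kcne2 and Kcnj2 spread as widely inside a lineage as between them.

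Kcne4 is known from vascular smooth muscle, and markers of contractile cells had lower means too, as did most markers of theca cells, oocytes and endothelium. All 11 smooth muscle markers had lower means in the DEHP lineage, with a median log2 fold change of -0.327, and their summed level was 2111 to 2453 CPM there against 2592 to 2930 CPM in the control lineage. None of them was under 1 CPM on average. Of these markers, 6 were lower without overlap, as were 12.2% of all genes. By limma, 0 had an adjusted p under 0.05, against 0.0425% of all genes, and 1 with 4 degrees of freedom, against 0.122%. The lowest fold change was that of Smpx, a small muscle protein, at -1.21 (limma adjusted p 0.165). Actg2 was next at -0.56. The list was chosen with earlier results of these data known, so its counts are a description and not a test. Pericyte markers were lower in 6 of 8, with a median of -0.117 and sums of 323.4 to 340.8 CPM in the DEHP lineage and 334 to 402.8 CPM in the control lineage. One of them, Higd1b, averaged under 1 CPM. All 7 theca and interstitial markers were lower too, with a median of -0.344 and sums of 2586 to 2671 CPM against 2783 to 3453 CPM. Most of each sum was Hsd3b1, with a log2 fold change of -0.18 (SE 0.14). Of the 7, 2 were lower without overlap, and Insl3 averaged under 1 CPM. Oocyte markers were lower in 8 of 9 (median -0.231), with sums of 856.2 to 943.4 CPM in the DEHP lineage and 930.7 to 1197 CPM in the control lineage. Endothelial markers were lower in 5 of 7 (median -0.128), with sums of 341.1 to 396.3 CPM in the DEHP lineage and 391.2 to 429.9 CPM in the control lineage. None of the oocyte and endothelial markers averaged under 1 CPM, and 2 of each list were lower without overlap. Nerve and glia markers were lower in 4 of 5 (median -0.139). Other lists did not share this direction. Granulosa markers were higher in 4 of 8, stromal fibroblast markers in 3 of 6 and adipocyte markers in 3 of 5. Surface epithelium and oviduct markers were higher in 6 of 8 (median 0.404). Of all genes, 46.9% had a higher mean. In whole ovaries fewer cells of a type and less RNA per cell cannot be told apart. The part of these cell types in the Kcne4 value was not tested.

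**Figure D3:**
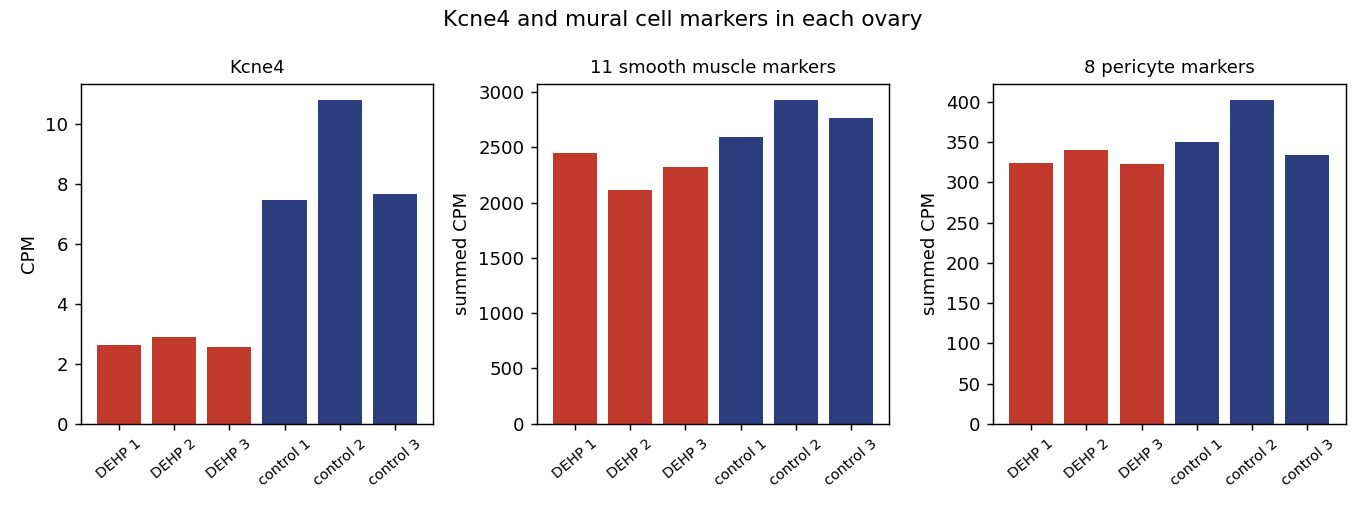
Kcne4 (left, CPM), the sum of 11 smooth muscle markers (middle, summed CPM) and the sum of 8 pericyte markers (right, summed CPM), with a bar for each ovary. Kcne4 is at 2.57 to 2.89 CPM in the DEHP lineage and 7.47 to 10.8 CPM in the control lineage, and smooth muscle markers are at 2111 to 2453 and 2592 to 2930 CPM.

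Of other channel genes known from blood vessels, Kcnmb1, Kcnma1 and Kcnj8 had smaller fold changes than Kcne4. Kcnmb1, the BK channel subunit of smooth muscle, was at 12, 9.31 and 11.2 CPM in the DEHP lineage, against 11.8, 13.4 and 12.7 CPM in the control lineage, a log2 fold change of -0.23 (95% interval -0.58 to 0.12). Kcnma1, the BK pore, was at 71.1, 58.1 and 62.8 CPM against 45.4, 61.6 and 64.7 CPM (0.17, interval -0.18 to 0.52), and its log2 fold change was 0.01 without control replicate 1 and 0.27 without control replicate 3. Kcnj8, the pore of the ATP-sensitive channel of mural cells, was at 5.63, 4.51 and 5.52 CPM against 7.19, 5.23 and 7.79 CPM (-0.35, interval -0.86 to 0.15). The groups overlapped in each of these genes. The sulfonylurea receptor gene Abcc9, the partner of Kcnj8, had a log2 fold change of -0.41 (SE 0.15, limma adjusted p 0.511).

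Across the family, 40 of 64 members (62.5%) had a higher mean in the DEHP lineage and 24 a lower one, where 46.9% of all genes were higher. The median log2 fold change was 0.111 over the members and -0.012 over all genes, and it was 0.013 without control replicate 3. By limma, 0 of 64 passed an adjusted p of 0.05 over all genes, against 7 genes (0.0425%) of the whole table, 4 higher (0.0243%) and 3 lower (0.0182%). By the adjusted p of the authors' deposited table, 3 genes (0.0182%) passed, and 0 of them were members. With 4 degrees of freedom, Kcne4 alone passed, among 20 genes (0.122%). An unadjusted p under 0.05 was found for 8 members (12.5%), against 8.78% of all genes, 6 of them higher (4.76% of all genes) and 2 lower (4.02%). The lineages did not overlap in 17 members (26.6%), against 22.9% of all genes, 10 of them higher (10.8% of all genes) and 7 lower (12.2%). In 5 members (7.81%) the log2 fold change was 1 or more in either direction, against 2.07% of all genes. Of these, 4 were among the 25 members with a mean log2 CPM under 1, a range where 6.9% of all genes reached that size. Since the family was taken up because of this contrast, these shares describe it and support nothing. The count of 7 genes was 35 without DEHP-lineage replicate 2, 21 without control replicate 1 and 3 without control replicate 2.

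**Figure D4:**
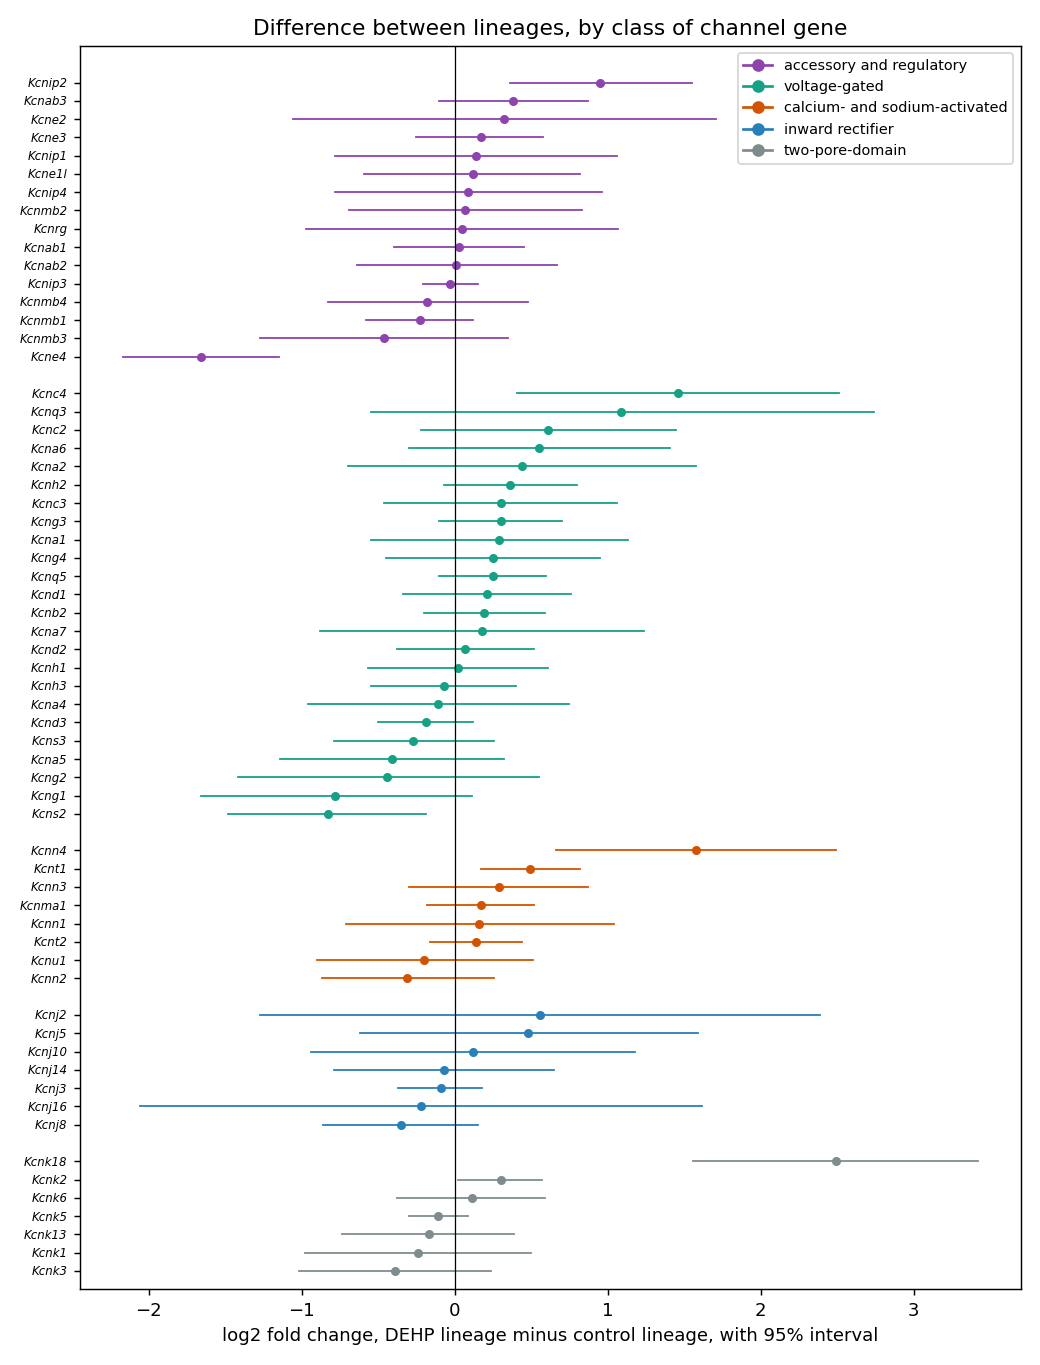
Log2 fold change, DEHP lineage minus control lineage, of 62 members (x axis, points) with 95% intervals (lines), grouped by class. Kcne4 lies lowest at -1.66 and Kcnk18 highest at 2.49, and most other intervals include 0.

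Among the 16 accessory and regulatory genes, 11 had higher and 5 lower means (median log2 fold change 0.059). The summed level was 138, 113.6 and 131.5 CPM in the DEHP lineage and 130.1, 136.5 and 130.4 CPM in the control lineage, so the groups overlapped. Kcnip2, the Kv4 partner that the transient outward current of the heart needs, was at 2.69, 2.69 and 2.8 CPM in the DEHP lineage, against 1.54, 1.59 and 1.14 CPM in the control lineage. All DEHP-lineage ovaries were higher, with a log2 fold change of 0.95 (SE 0.26), or 0.63 with log2(CPM + 1), and a limma adjusted p of 0.448. The Kv4 pore genes that Kcnip2 serves had smaller fold changes or overlapped. Kcnd3 had a log2 fold change of -0.19 (SE 0.13), with overlap. Kcnd1 was at 2.49, 2.67 and 2.61 CPM against 2.42, 2.46 and 1.89 CPM. It was higher in each DEHP-lineage ovary by a small step (0.21, SE 0.23, limma adjusted p 0.829). Kcnd2 overlapped, at 4.07, 4.58 and 4.01 CPM against 3.63, 4.08 and 4.37 CPM. Kcnab3, a cytosolic Kv1 beta subunit, was at 5.07, 5.16 and 4.79 CPM against 3.29, 3.68 and 4.66 CPM, without overlap (0.38, SE 0.21, limma adjusted p 0.644). Its relatives overlapped between lineages: Kcnab1 was at 17.5 to 28.7 and 22.2 to 23.5 CPM, and Kcnab2 at 1.56 to 2.5 and 1.79 to 1.98 CPM. Kcnmb3, a BK subunit gene with all DEHP-lineage ovaries lower, was at 0.699, 0.752 and 0.662 CPM against 0.817, 0.811 and 1.36 CPM.

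The 26 voltage-gated pore genes had 17 higher and 9 lower means (median log2 fold change 0.188). Kv2 channels pair with silent subunits of the Kcng and Kcns groups, which form no channel alone. Kcns2, a silent subunit, was at 3.16, 6.18 and 3.76 CPM in the DEHP lineage, against 8.33, 6.65 and 7.52 CPM in the control lineage. DEHP-lineage replicate 2 was close to the lowest control ovary, and the log2 fold change was -0.83 (SE 0.28, limma adjusted p 0.491). Kcns3 was at 1.94, 2.06 and 1.95 CPM against 2.34, 2.5 and 2.33 CPM, lower in each DEHP-lineage ovary by a small step (-0.27, SE 0.22). The silent subunit gene Kcng3 was at 9.51, 9.11 and 9.79 CPM against 8.46, 8.5 and 6.37 CPM, higher in each DEHP-lineage ovary (0.30, SE 0.17). The pore gene Kcnb2 overlapped, at 8.8 to 9.87 CPM against 6.98 to 9.36 CPM.

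Kcnc4, the pore gene of the fast-inactivating channel Kv3.4, was at 1.27, 1.53 and 1.5 CPM in the DEHP lineage, against 0.707, 0.722 and 0.275 CPM in the control lineage. The log2 fold change was 1.46 (SE 0.45, limma adjusted p 0.491), 1 without control replicate 3, the lowest ovary, and 0.65 with log2(CPM + 1). Kcnh2 and Kcnq5, high in the ovary, had log2 fold changes of 0.36 (SE 0.19) and 0.25 (SE 0.15) with overlapping groups. Control replicate 3 was the lowest ovary for both, at 39.7 and 65.4 CPM, and without it the log2 fold changes were 0.18 and 0.10. That of Kcnh2 was 0.58 without control replicate 2. Kcnq3, at 2.34, 0.687 and 1.37 CPM against 0.276, 1.48 and 0.555 CPM, spread widely in both lineages, and the groups overlapped.

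In the 8 calcium- and sodium-activated pore genes, 6 had higher and 2 lower means, and the summed level was 205.6, 196.5 and 198.3 CPM in the DEHP lineage, against 163.2, 191.2 and 169.4 CPM in the control lineage. The sums did not overlap, with closest values of 196.5 and 191.2 CPM. Of all single genes, 22.9% did not overlap. Most of each sum came from Kcnt2, Kcnma1 and Kcnt1, and Kcnt2 and Kcnma1 overlapped between lineages. Sums of the voltage-gated, inward rectifier and two-pore-domain genes overlapped. Kcnt1, a sodium-activated channel, was at 36.4, 42.9 and 35.3 CPM against 22.9, 28.2 and 30.6 CPM, a log2 fold change of 0.49 (SE 0.14, limma adjusted p 0.455). Its relative Kcnt2 was at 85.3, 87.1 and 88 CPM against 83.8, 90.3 and 64.3 CPM, where control replicate 3 alone lay apart, and its log2 fold change of 0.14 was 0 without that ovary. Kcnn4, the intermediate-conductance calcium-activated channel known from red blood cells and lymphocytes, was at 1.09, 0.692 and 1.05 CPM against 0.365, 0.234 and 0.348 CPM. All DEHP-lineage ovaries were higher, with a log2 fold change of 1.58 (SE 0.39, limma adjusted p 0.386), or 0.56 with log2(CPM + 1). All 4 measured erythroid markers, led by globin genes, had higher means too, with a median of 0.84, but the groups overlapped in each. Their sums were 278.1, 115 and 206 CPM against 65.45, 77.04 and 126 CPM, and none averaged under 1 CPM. Of 6 macrophage and leukocyte markers, 3 had higher and 3 lower means. The part of blood in the Kcnn4 value was not tested. The small-conductance channel genes overlapped between lineages. Kcnn2 had a log2 fold change of -0.31 (SE 0.24), Kcnn1 was at 1.08 to 2.13 and 1.11 to 1.82 CPM, and Kcnn3 at 2.88 to 3.59 and 2.12 to 3.15 CPM.

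The 7 two-pore-domain genes, whose channels carry background potassium current, had 3 higher and 4 lower means. Kcnk18 encodes a calcineurin-regulated channel of sensory neurons. It was at 0.747, 1.18 and 0.816 CPM in the DEHP lineage, against 0.157, 0.189 and 0.138 CPM in the control lineage. The groups lay far apart at a low level, with a log2 fold change of 2.49 (SE 0.40) and a limma adjusted p of 0.174, or 0.0503 with 4 degrees of freedom. At this level the fold depends on the prior count that the authors added, and with log2(CPM + 1) it was 0.71. Kcnk2 was at 62.3, 59.3 and 63.8 CPM against 54.6, 55.2 and 42.2 CPM, higher in each DEHP-lineage ovary (0.30, SE 0.12, limma adjusted p 0.558), and the log2 fold change was 0.17 without control replicate 3. Kcnk5 was at 33.8, 34.3 and 33.5 CPM against 35.6, 35.4 and 38.4 CPM, a small step down (-0.11, SE 0.08). Kcnk3, an acid-sensitive channel, ranged from 23.8 to 25.4 CPM in the DEHP lineage and from 23.2 to 51.2 CPM in the control lineage, where replicate 2 alone was high. Kcnk1 ranged from 13.1 to 20.6 and from 11.7 to 26.6 CPM, and its log2 fold change of -0.24 was 0.01 without control replicate 3.

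**Figure D5:**
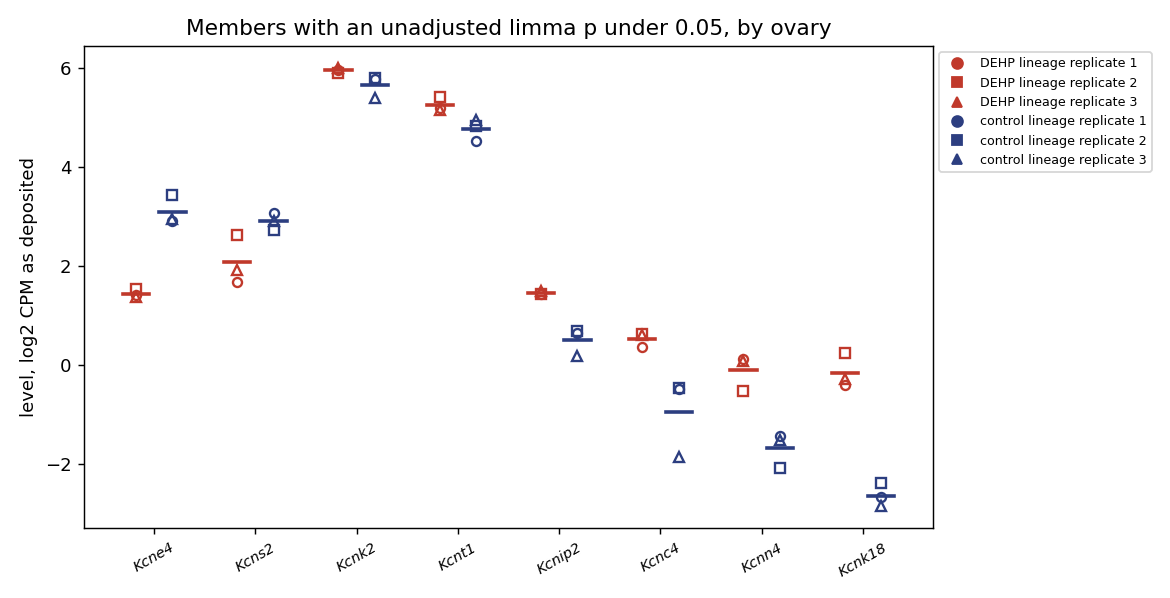
Level in log2 CPM (y axis) of the 8 members with an unadjusted limma p under 0.05, ordered by fold change, with a point for each ovary and a bar at the mean of 3. None passed after adjustment over all genes, and Kcnc4, Kcnn4 and Kcnk18 lie under 2 CPM in all 6 ovaries.

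The 7 inward rectifier genes had 3 higher and 4 lower means, and 0 had an unadjusted limma p under 0.05, against 8.78% of all genes. With 7 genes, a count of 0 does not set the class apart from that share. Kcnj2, a strong inward rectifier that holds muscle cells near the potassium equilibrium, was at 3.1, 20.1 and 4.06 CPM in the DEHP lineage, against 3.36, 2.45 and 9.68 CPM in the control lineage. DEHP-lineage replicate 2 and control replicate 3 stood above the other 4 ovaries, and the log2 fold change of 0.56 (SE 0.78) was -0.28 without DEHP-lineage replicate 2. Kcnj16, which lies 38.2 kb from Kcnj2 on chromosome 11, was at 0.245, 1.28 and 0.424 CPM against 1.1, 0.239 and 0.795 CPM. Its highest ovary was the same as that of Kcnj2, and the log2 levels had a correlation of 0.72 over the 6 ovaries, which share libraries and normalization. Sums of 5 adipocyte markers were 33.23, 258.6 and 62.79 CPM against 147.6, 75.74 and 41.56 CPM, also highest in DEHP-lineage replicate 2 but low in control replicate 3. Sums of 5 measured nerve and glia markers were 49.42, 70.11 and 50.38 CPM against 48.14, 55.91 and 59.47 CPM, highest in the same 2 ovaries, and Prph averaged under 1 CPM. Their part in the Kcnj2 level was not tested. Kcnj5, the partner of Kcnj3 in the heart, was at 9.15, 2.8 and 7.87 CPM against 5.39, 2.95 and 4.67 CPM, lowest in replicate 2 of each lineage.

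The likeness of other members to Kcne4 was described by Pearson's correlation of log2 CPM over the 6 ovaries, which share libraries and in which Kcne4 was picked for its split between lineages. Among the higher values were 0.99 for Kcns3 and 0.84 for Kcnj14, which differed between lineages by far less than Kcne4. Kcnj14 was at 0.643 to 0.659 CPM in the DEHP lineage and 0.665 to 0.715 CPM in the control lineage, and 35.57% of its 31-base words occur in another gene. The lowest values were -0.98 for Kcnn4 and -0.93 for Kcnk18.

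Genes that lie near Kcne4 on chromosome 1 had smaller fold changes. Within 500 kb the table holds 4 others. Acsl3, a fatty acid ligase gene 109.2 kb away, was at 0.01 (SE 0.11). Farsb, a transfer RNA synthetase gene, was at -0.33 (SE 0.14, limma adjusted p 0.565), lower in each DEHP-lineage ovary. Utp14b and Sgpp2 were at 0.11 and -0.37 with overlapping groups. Near Kcnk18 on chromosome 19, the monoamine transporter gene Slc18a2 lies 23.5 kb away and was at -0.03 (SE 0.17), while Emx2, a homeobox gene 221.3 kb away, was at 0.27 (SE 0.09, limma adjusted p 0.491) with all DEHP-lineage ovaries higher. Emx2os was also higher without overlap, at 0.83 (SE 0.29, limma adjusted p 0.499). So was Eno4, at 0.80 (SE 0.31, limma adjusted p 0.543), with a mean log2 CPM of only 0.12. Hspa12a was lower at -0.44 (SE 0.15, limma adjusted p 0.499), while Pnliprp1, 1700019N19Rik, Shtn1 and Pdzd8 overlapped. Of all genes, 22.9% did not overlap, and a regional difference was not tested.

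Outside the family, 3 related lists held 0 genes with a limma adjusted p under 0.05, whether 3 or 4 degrees of freedom were used. Of all genes, only 0.0425% passed with 3 and 0.122% with 4, so counts of 0 say little about these lists. Of 14 measured channel partners, 5 had higher and 9 lower means (median -0.037). Hcn2, a hyperpolarization-activated channel gene, was at 0.75 (SE 0.23, limma adjusted p 0.491) without overlap. Sgk1, a kinase that raises channel density at the membrane, was at 0.93 (SE 0.39) with overlap. Of 13 potassium pump and cotransporter genes, 7 were higher and 6 lower (median 0.003). The sodium-potassium-chloride cotransporter gene Slc12a2 was at -0.17 (SE 0.09, limma adjusted p 0.625), lower in each DEHP-lineage ovary. The pump gene Atp1a4, under 1 CPM on average, was at 0.82 (SE 0.37, limma adjusted p 0.58), higher in each DEHP-lineage ovary. Of 23 calcium channel and store genes, 14 were higher and 9 lower (median 0.005). Cacna2d1, an auxiliary calcium channel subunit, was at -0.19 (SE 0.07, limma adjusted p 0.516), lower in each DEHP-lineage ovary. Cacna1e was at 0.96 (SE 0.40, limma adjusted p 0.564), higher in each DEHP-lineage ovary. Without overlap, 3 of the calcium list were higher and 2 lower, against 10.8% and 12.2% of all genes.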

How the data were processed

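Per the labels' protocols, total RNA from whole frozen ovaries was made into strand-marked mRNA libraries and read from one end on one lane. GRCm38.p6, edgeR 3.20.5, STAR 2.5.3a, Trimmomatic 0.36, featureCounts, R 3.4.3, Subread 1.5.2, bcl2fastq 2.17.1.14 and FastQC 0.11.5 are named per the submitters' processing notes. The sources used here give neither their roles nor the strand setting and the prior count. The authors deposited log2 CPM per ovary and their own log2 fold changes, p-values and adjusted p-values. Removal of a surrogate variable is stated in that table's name, and the residuals about the group means had rank 3 instead of 4. No counts were used, so depth is unknown.

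Here all 16454 genes were fitted with limma 3.58.1 in R 4.3.3 (moderated test with a mean-variance trend, two-sided, Benjamini-Hochberg adjustment over all genes, threshold 0.05), with residual degrees of freedom set to 3, a choice made after the residuals were seen. Fits on fewer samples or with a block lowered them by the share of the removed direction in their residuals. The script was tested on simulated data. CPM per kb used exon lengths of GENCODE's GRCm38 annotation, matched by Entrez identifier for 64 of 64 members. The genes named were the Kcne genes, the 3 highest and the 3 with the smallest p per class, the largest non-overlapping differences, and up to 3 per outside list. Members outside the rule are given by levels, and for Kcnj14 and Kcnj16 a correlation. They, the marker genes named and the genes near Kcne4 and Kcnk18 were picked after their values were seen. A few members, counted in every total, are not reported here by name or drawn. Members and lists were chosen with earlier results of these data known. Alternatives were the degrees of freedom, a replicate block, scaling, a filter, a pseudocount, the trend, averaging DEHP-lineage replicates 1 and 3, and leaving out each ovary.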

Additional observations from a re-analysis of the deposited data

How the results depend on the processing

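The directions of the 31 members named by rule held under quantile normalization, median centring, a filter at a mean log2 CPM of 0, log2(CPM + 1), no mean-variance trend and averaging of DEHP-lineage replicates 1 and 3, except that members under that filter, such as Kcnk18, Kcnn4 and Kcnc4, have no value there. Members called numbered 1 with 4 residual degrees of freedom (Kcne4) and 2 with the replicate block (Kcne4 and Kcnk18), and genes called 20 and 155. Genes called also numbered 3 with quantile normalization and 1 without the trend. Leaving out 1 ovary gave 0 to 1 members and 3 to 35 genes called, 34 to 40 members higher, and medians of 0.013 to 0.148. The log2 fold change then ranged from -1.75 to -1.49 for Kcne4 (limma adjusted p 0.049 to 0.268) and from 2.29 to 2.62 for Kcnk18 (0.19 to 0.338). It changed sign for Kcne1l (-0.08 to 0.31), Kcne2 (-0.13 to 0.89), Kcnip3 (-0.06 to 0.02), Kcnj2 (-0.28 to 1.14) and Kcnk1 (-0.58 to 0.01), and reached 0 for Kcnt2 (0 to 0.24). Leaving out 1 ovary also moved, with no change of sign, the values of Kcnd1 (0.09 to 0.27), Kcnd3 (-0.32 to -0.06), Kcng3 (0.16 to 0.37), Kcnj3 (-0.20 to -0.02), Kcnj5 (0.16 to 1.01), Kcnj8 (-0.53 to -0.24), Kcnk3 (-0.62 to -0.05), Kcnk5 (-0.13 to -0.07), Kcnmb1 (-0.31 to -0.12), Kcnn2 (-0.45 to -0.12) and Kcne3 (0.11 to 0.24). The cause was not tested. Same-numbered ovaries had deviations from their group means with correlations of -0.327, -0.003 and -0.198 across genes. The removed direction had weights of -0.6 and -0.19 in DEHP-lineage and control replicates 1. In replicates 3 they were 0.75 and 0.1. Its removal lowers the correlations of such pairs, so these values cannot tell whether the numbers pair the ovaries. Without counts, what depth limits is unknown.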
